A study of Mus musculus with 2 samples.

Results

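The proximal miRNAs of the imprinted Dlk1-Dio3 locus are the hairpin genes that lie around the retrotransposon-derived gene Rtl1 and the noncoding RNAs Meg3 and Rian on mouse chromosome 12. The members were the chromosome 12 rows of the count tables whose Ensembl identifier is named Mir770, Mir337, Mir540, Mir665, Mir431, Mir433, Mir127, Mir434, Mir3071 or Mir370 in GENCODE M21, and all 10 were found among 1973 rows. Small RNA below 30 bases, per the labels, was sequenced from whole liver of B6NCrl mouse embryos at embryonic day 16.5. Both libraries belong to 1 group: untreated, healthy tissue pooled from male and female embryos, with no allele or agent named. The replicate 2 pool held 41 embryos; for replicate 1 the labels state only that livers were pooled. The labels cite the same donor record for both pools, so their difference measures the spread between these 2 pools only.

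The locus is expressed from 1 parental chromosome. Dlk1, Rtl1 and Dio3 are transcribed from the paternal copy, whereas Meg3, Rian, Mirg and the miRNAs they carry come from the maternal copy. A miRNA hairpin is cut into a 5p and a 3p mature strand, and bases 2 to 8 of a mature strand, its seed, pair with target messenger RNAs. Mir431, Mir433, Mir127, Mir434 and Mir136 are transcribed antisense to Rtl1 and are known to direct cleavage of the paternal Rtl1 message, since they match it along their full length. In fetal liver the locus is known for its activity in hepatic progenitors, which carry Dlk1, and in hematopoietic stem cells.

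The mature strands of the 4 members that lie antisense to the coding exon of Rtl1 are shown because their whole sequence is complementary to its message. All 8 are exact complements of the coding part (bases 148 to 5379) of the Rtl1 transcript of 6358 bases. This follows from the place of the hairpins on the opposite strand of that exon. All sequences are from RefSeq (GRCm38.p6, plus strand of chromosome 12 unless stated) and run 5′ to 3′, with the seed in capitals.
miR-431-5p: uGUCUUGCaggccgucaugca
miR-431-3p: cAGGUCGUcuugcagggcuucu
miR-433-5p: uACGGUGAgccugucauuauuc
miR-433-3p: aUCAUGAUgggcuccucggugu
miR-127-5p: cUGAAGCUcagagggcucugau
miR-127-3p: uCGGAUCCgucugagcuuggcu
miR-434-5p: gCUCGACUcaugguuugaacca
miR-434-3p: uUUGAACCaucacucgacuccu

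In the message the complements begin at base 965 for miR-434-3p, 1002 for miR-434-5p, 2642 for miR-127-3p, 2676 for miR-127-5p, 3749 for miR-433-3p, 3801 for miR-433-5p, 5028 for miR-431-3p and 5072 for miR-431-5p. The 4 hairpins thus spread over most of the coding region, in the reverse of their order on the chromosome. The deposited counts are per hairpin, so which of the strands shown made up a count is not known.

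The Mir3071 row needs a second set of sequences, since 2 hairpins occupy its place on opposite strands. In GENCODE M21, Mir3071 lies on the minus strand, sense to Rtl1, and Mir136 lies inside it on the plus strand with no row of its own.
miR-3071-5p: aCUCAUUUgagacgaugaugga
miR-3071-3p: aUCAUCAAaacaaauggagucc
miR-136-5p: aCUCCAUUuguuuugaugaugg
miR-136-3p: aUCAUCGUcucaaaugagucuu

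The 4 seeds differ from each other, and both strands of miR-136 are exact complements of the Rtl1 coding sequence, beginning at bases 164 (3p) and 199 (5p). The identifier of this row has version 1 in the deposited tables and version 2 in M21. The strand it had in the M4 annotation used for counting is not given in the sources used here. Reads of this row were split by strand, but which of its strand columns holds miR-3071 and which miR-136 is therefore not known. Its values are given below as those of the Mir3071 row. The 4 other minus-strand rows of the locus held 0 to 48 counts on their own strand in replicate 1 and 12802 to 133886 on the opposite one, and 0 to 45 against 10904 to 92537 in replicate 2. The Mir3071 row had nearly all its counts in the column used as sense.

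The other strands carried seeds found nowhere else, with 2 exceptions. Of the 20 mature sequences of the members, of 20 to 26 bases, 18 had a seed that no other mouse mature sequence in the RefSeq table of 1679 entries shared. miR-540-3p shared its seed with miR-6915-5p. miR-370-5p shared its seed with miR-1193-3p, which comes from the distal part of the same locus, and the pair is shown for that reason; Mir1193 was singled out after this match was seen.
miR-370-5p: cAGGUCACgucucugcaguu
miR-1193-3p: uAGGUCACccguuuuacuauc

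No mature sequence of a member occurred in the hairpin of another listed gene, and no member shared an 18-base word with another row, so near-identical listed copies do not split their counts.

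The 10 hairpins span 54.6 kb of mm10. Mir770 (ENSMUSG00000076451.1, chromosome 12, 109563692 to 109563785) overlaps an exon of Meg3. Mir337 (ENSMUSG00000065526.3, 109585789 to 109585885), Mir540 (ENSMUSG00000072900.1, 109586080 to 109586146) and Mir665 (ENSMUSG00000076313.1, 109586314 to 109586407) form a tight triplet that overlaps no annotated gene on its strand, with 194 and 167 bases between neighbours. Mir431 (ENSMUSG00000070080.1, 109590447 to 109590537), Mir433 (ENSMUSG00000070072.1, 109591715 to 109591838), Mir127 (ENSMUSG00000070076.1, 109592846 to 109592915), Mir434 (ENSMUSG00000070133.1, 109594506 to 109594599) and the Mir3071 row (ENSMUSG00000070129.1, 109595318 to 109595397) lie within 4.95 kb, each wholly inside the coding exon of Rtl1. Mir370 (ENSMUSG00000065433.1, 109618258 to 109618336) lies in an intron of Rian. Apart from Mir3071, all 9 are on the plus strand. Coordinates are those of M21, and 4 members (Mir337, Mir540, Mir127 and Mir3071) have another version number there than in the deposited tables.

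The members together held 5.07% of the sense-strand miRNA counts in replicate 1 (300942 of 5930074; 95% Clopper-Pearson interval 5.06% to 5.09%) and 4.20% in replicate 2 (214378 of 5102289; 4.18% to 4.22%), or 4.64% ± 0.62 (SD, n = 2). They made up 30.1% and 27.0% of the sense-strand counts of all 58 miRNA rows of the locus. These 2 shares leave out opposite-strand counts. At 4 distal minus-strand rows those came to 12802 to 133886 each in replicate 1 and 10904 to 92537 in replicate 2. All 10 members were above 100 CPM (counts divided by the sense-strand total of the library and multiplied by 1000000) in both libraries, a level that 177 of the 1973 rows reached. The Clopper-Pearson intervals cover counting error alone and treat each read as a separate molecule. Copies made by PCR are not separate molecules, so the intervals can be too narrow even for counting error. In whole liver, fewer cells of a type and less RNA per cell cannot be told apart. The tissue label was met by its defining miRNA: the hepatocyte gene Mir122 was at 213274 and 214555 CPM.

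Mean levels differed by 91.6-fold between Mir127 and Mir770, the highest and the lowest member in both libraries. Mir127, the best known of the antisense group, had 108015 counts in replicate 1 and 76841 in replicate 2, which is 18215 and 15060.1 CPM (16637 ± 2231, SD, n = 2). Mir431, reported to act on Pax7 in muscle progenitors, had 95776 and 66909 counts (16151 and 13114 CPM; 14632 ± 2148). Both were higher in replicate 1, and together they held 67.7% and 67.1% of the members' counts. Within a library Mir127 exceeded Mir431 by 1.13-fold (replicate 1) and 1.15-fold (replicate 2), but their ranges over the libraries overlapped.

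Below them lay Mir434 and Mir337. Mir434, the antisense hairpin nearest to the start of the Rtl1 coding region among the 4, had 25603 and 21096 counts (4317 and 4135 CPM; 4226 ± 129). Mir337, the first hairpin of the triplet, had 26425 and 18775 counts (4456 and 3679.7 CPM; 4068 ± 549). Mir337 was the higher of the pair in replicate 1 and Mir434 in replicate 2, so these neighbours in the order were not separated beyond their spread.

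The middle of the order held 4 rows between 1052 and 2607 CPM. Mir433, antisense to Rtl1 like Mir127, had 15457 and 8619 counts (2607 and 1689 CPM; 2148 ± 649), the widest relative gap between the libraries among the members. The Mir3071 row had 8016 and 8235 counts (1352 and 1614 CPM; 1483 ± 185) and was the only member row with the higher CPM in replicate 2. Mir540 had 8474 and 5468 counts (1429 and 1072 CPM; 1250.3 ± 253). Mir665 had 8096 and 5368 counts (1365 and 1052 CPM; 1209 ± 221). The ranges of the Mir3071 row, Mir540 and Mir665 overlapped between neighbours, so their order over the libraries is not established. Within a library Mir540 slightly exceeded Mir665 (1.05-fold and 1.02-fold), whereas the Mir3071 row was below Mir540 in replicate 1 and above it in replicate 2. Mir433 stayed above the Mir3071 row in both libraries.

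The lowest members were the outermost ones. Mir370, reported in liver cells to act on the fatty acid oxidation gene Cpt1a, had 3799 and 2315 counts (641 and 454 CPM; 547 ± 132). Mir770 of Meg3 had 1281 and 752 counts (216 and 147 CPM; 182 ± 48.5). The ranges of Mir665, Mir370 and Mir770 did not overlap. A read of this assay spans a whole mature miRNA, so counts were not divided by length for this order. With CPM per hairpin base, over hairpins of 67 to 124 bases, 2 members changed rank: Mir433 moved from the fifth place to the seventh and Mir540 from the seventh to the fifth. This is an order of counts and not of molecules per cell.

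**Figure D1:**
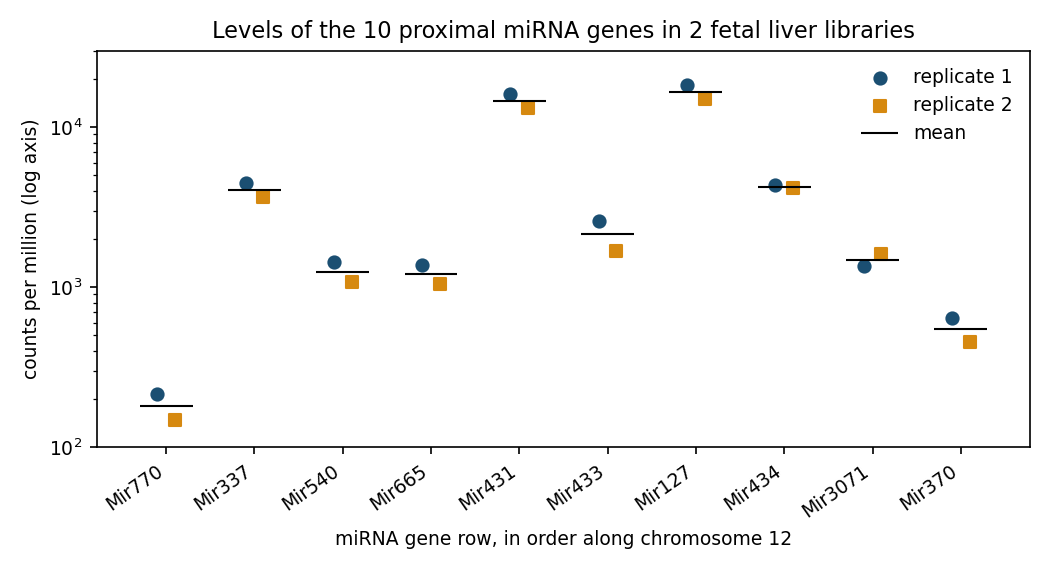
CPM (log axis) of the 10 member rows in replicate 1 (circles) and replicate 2 (squares), with the mean as a line, in order along chromosome 12. Mir127 and Mir431 stand at 13114 CPM or more in both libraries, the outermost rows Mir770 and Mir370 are lowest, and the Mir3071 row alone has its square above its circle.

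Neighbouring hairpins differed widely in counts. The level of Mir431 was 6.20-fold (replicate 1) and 7.76-fold (replicate 2) that of Mir433, which lies 1177 bases further on. Mir127 exceeded Mir434 by 4.22-fold and 3.64-fold. In the triplet, Mir337 exceeded Mir540 by 3.12-fold and 3.43-fold, whereas Mir540 and Mir665 were near parity (1.05-fold and 1.02-fold). Adjacent hairpins thus gave unequal counts, in the same direction in both libraries.

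Reads opposite to the annotated strand were found at few members. Mir540, Mir665, Mir431, Mir433, Mir370 and Mir770 had none in either library, and Mir127 and Mir434 had 1 count each over both. For Mir431, 0 of 95776 counts allows a share of up to 0.00313% (3 counts), and for Mir770, 0 of 1281 allows up to 0.234%. At Mir337 the opposite strand, where the hairpin Mir3544 is annotated with no row of its own, had 202 counts in replicate 1 and 129 in replicate 2. That is 0.759% (95% Clopper-Pearson interval 0.658% to 0.870%) and 0.682% (0.570% to 0.810%) of the counts on both strands, and the intervals overlap. The 4 mature strands that meet there are shown for their overlap: miR-337-5p lies across from miR-3544-3p and miR-337-3p across from miR-3544-5p, with both miR-3544 strands on the minus strand.
miR-337-5p: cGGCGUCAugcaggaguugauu
miR-3544-3p: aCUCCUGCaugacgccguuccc
miR-337-3p: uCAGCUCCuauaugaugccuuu
miR-3544-5p: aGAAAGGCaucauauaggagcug

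At the Mir3071 row the opposite column had 13 and 21 counts, or 0.162% (0.0862% to 0.277%) and 0.254% (0.158% to 0.389%), whichever of the 2 hairpins they belong to.

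The 2 pools differed in these genes by more than counting error, mostly in 1 direction. Of the 10 members, 9 were lower in replicate 2 and 1, the Mir3071 row, was higher (exact conditional binomial test, two-sided, given the sense totals, with Benjamini-Hochberg adjustment over 440 tested rows and a threshold of 0.05). Over all tested rows 27% were lower and 17.5% higher in replicate 2 by the same test. Since the test finds small ratios at high counts, rows with a mean of 100 CPM or more are the closer background, and of these 183 rows 50.8% were lower and 28.4% higher. The median log2 ratio of replicate 2 to replicate 1 was -0.34 over the members and -0.08 over all tested rows, and 8 members lay below the median of all rows. With TMM scaling, 98 rows were lower and 96 higher in all, against 119 and 77 with totals, and 8 members were lower.

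These calls cover counting error in 1 library a side, with each read taken as a separate molecule, and not the usual spread between pools. Over all tested rows the 2 libraries had a common biological coefficient of variation of 22.9%. In an edgeR exact test with that dispersion, 0 of 10 members passed the threshold in either direction. None had an unadjusted p under 0.05, against 22 of 440 tested rows. The test called 0% of rows lower and 0.682% (3 rows) higher. The dispersion was estimated from the same 2 libraries, so the difference under test was already counted as spread. The test could thus call few rows, and it does not decide whether the members differed between the pools.

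Among the antisense members, Mir433 had the lowest ratio, at 2607 and 1689 CPM (log2 ratio -0.63, counting SE 0.02; exact binomial adjusted p = 1.13e-234). Mir431 and Mir127 had log2 ratios of -0.30 and -0.27, each with a counting SE of 0.01. Mir434 had a log2 ratio of only -0.06 (counting SE 0.01; exact binomial adjusted p = 1.10e-05), which was 0.01 with TMM or DESeq2 scaling and then not called. These 4 hairpins, antisense to 1 exon, had unlike ratios: those of Mir433 and Mir431 differed by -0.33 (counting SE 0.02).

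The Mir3071 row went the other way, with a log2 ratio of 0.26 (counting SE 0.02; exact binomial adjusted p = 9.05e-29), 718 bases from Mir434. It kept this direction under each scaling tried, with log2 ratios from 0.26 to 0.33. In the triplet, Mir337 had a log2 ratio of -0.28, Mir665 of -0.38 and Mir540 of -0.42, with counting SEs of 0.01, 0.03 and 0.03. The outer members Mir370 and Mir770 had log2 ratios of -0.50 (counting SE 0.04) and -0.55 (counting SE 0.07). The SD of the 10 log2 ratios was 0.26. The counting SEs of 0.01 to 0.07 leave out the spread between pools, so the variation among the members' ratios was not tested against that spread.

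**Figure D2:**
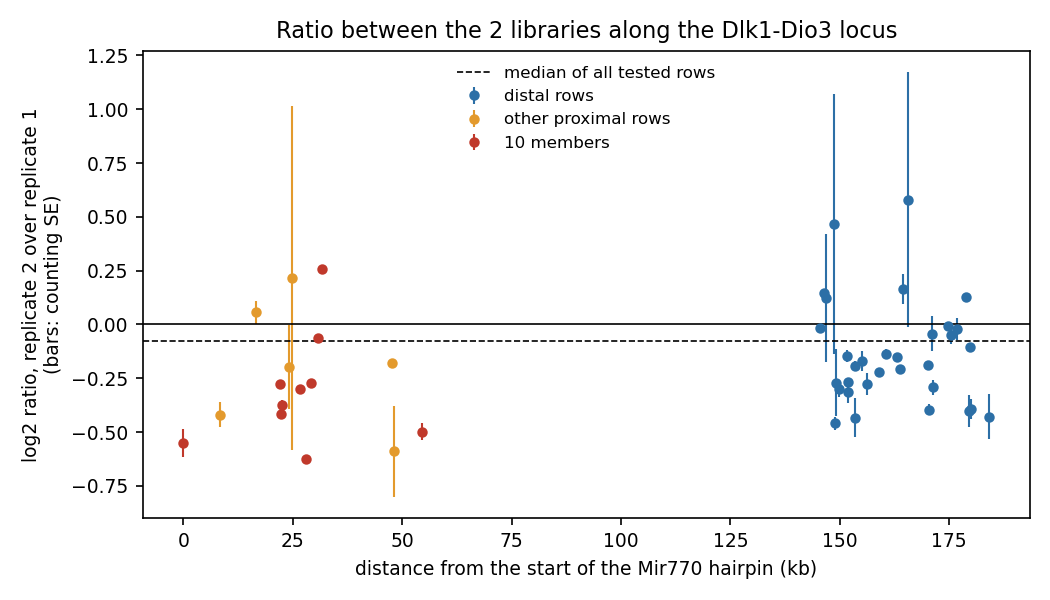
Log2 ratio of replicate 2 to replicate 1 (vertical axis; bars are counting SEs) against the distance from the start of the Mir770 hairpin in kb, for tested rows of the locus. All members but the Mir3071 row lie below 0, most of them below the dashed median of all tested rows (-0.08), and the distal rows lie closer to that line, with a median of -0.18.

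The distal rows begin with Mir379 at position 109709060, and the 32 of 38 that were tested had a median log2 ratio of -0.18, with 20 lower and 3 higher in replicate 2, and 21 of the 32 below the median of all rows. Their summed share was 11.5% and 11.1% of all sense-strand counts (11.3% ± 0.28, SD, n = 2), so the summed log2 ratio was -0.05, against -0.27 for the members. By sense-strand counts the 3 most abundant distal rows were Mir411 (log2 ratio 0.14), Mir487b (-0.21) and Mir379 (-0.01). Opposite-strand counts of 4 minus-strand distal rows, such as 133886 and 92537 for Gm24321, enter neither the sum nor this order. The difference between members and distal rows is given as a description of these libraries and was not tested.

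Of the other proximal rows, 8 of 10 had a count and 6 were tested, with 3 lower and 0 higher by the exact binomial test. Mir341, in an intron of Rian, was the most abundant of them, with 14304 and 10855 counts (2269.8 ± 201 CPM, SD, n = 2; log2 ratio -0.18). Mir493 had 1515 and 1355 counts and a log2 ratio of 0.06, and Mir673 had 1516 and 975 counts and a log2 ratio of -0.42. Mir1188 had 128 and 73 counts (log2 ratio -0.59) and Mir3070a 127 and 95. Mir432 and Mir882 had no count. Mir3070b had 6 counts in each library, Gm23912 had 2 and 0, and Mir1906-1 had 0 and 1. Mir3070a and Mir3070b each share 44.4% of their 18-base words with another row, and Mir1906-1 shares 100%. Reads that map to several places are tallied apart from the genes, so the low counts of Mir3070a, Mir3070b and Mir1906-1 are uncertain. Mir432, Mir882 and Gm23912 share no such word with another row. None of these low counts shows that a miRNA is absent.

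**Figure D3:**
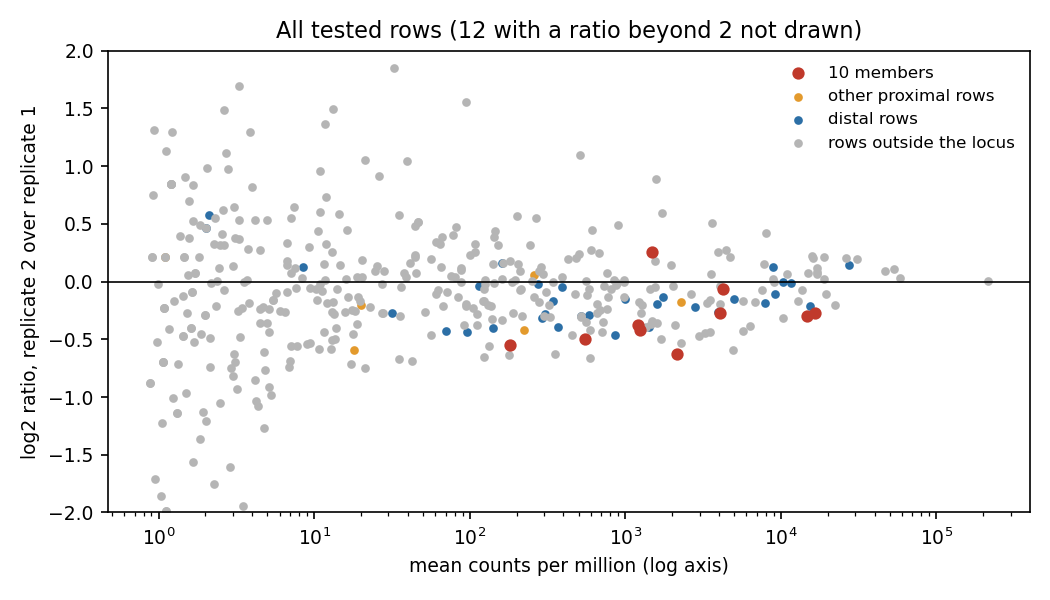
Log2 ratio of replicate 2 to replicate 1 against mean CPM (log axis) for the 440 tested rows, 12 of which have a ratio beyond 2 in size and are not drawn. The members (large points) lie at 182 CPM or more, with ratios of -0.63 to 0.26. All rows of 100 CPM or more, members included, run from -0.66 (Mir486) to 4.89 (Mir215), so Mir433 at -0.63 lies near the lower end.

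Some other properties moved with the ratios. The hairpins of the members held 45.7% to 70.2% G and C bases, with a median of 56.1%, against 42.8% for the 26 distal rows of 100 CPM or more. The least GC-rich members, Mir434 (45.7%) and the Mir3071 row (46.2%), had the highest ratios, and the most GC-rich, Mir770, had -0.55. Across the 10 members Spearman's rho between hairpin GC content and log2 ratio was -0.62 and Pearson's r -0.72; without the Mir3071 row they were -0.50 and -0.64. These points share their 2 libraries and are not independent replicates. The hairpin also holds bases outside the mature strands that are read, and the GC content of the mature strands was not set against the ratios. Across the 144 rows of 100 CPM or more outside the locus rho was -0.30. There the third with the highest GC content (54.1% to 69.1%) had a median log2 ratio of -0.19, with 32 of 48 rows lower in replicate 2. The third with the lowest GC content (30.5% to 45.8%) had a median of 0.02, with 14 of 48 lower. The part of base composition in the members' ratios was not tested.

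**Figure D4:**
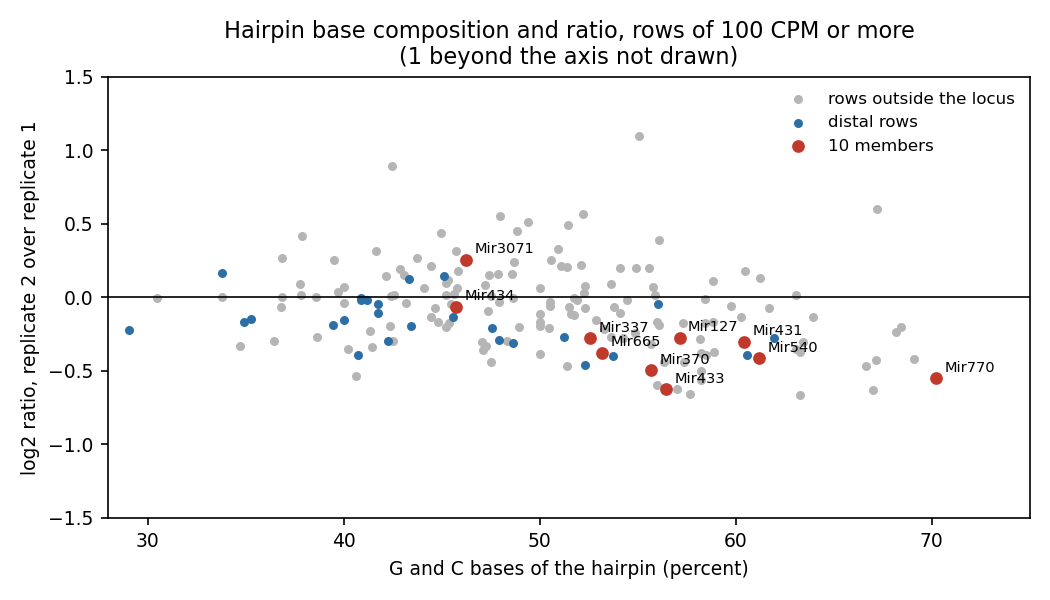
Log2 ratio of replicate 2 to replicate 1 against the G and C content of the hairpin in percent, for rows with a mean of 100 CPM or more (1 row beyond 1.5 is not drawn). Members are named; Mir434 and the Mir3071 row, near 46%, lie highest among them, and rows outside the locus also lean lower at high GC content.

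Markers of other cell types also differed between the pools by the exact binomial test, whose background is the 17.5% of all tested rows, and 28.4% of those of 100 CPM or more, that were higher in replicate 2. All 5 genes of the epithelial and biliary list had a row and a count, and all 5 were higher in replicate 2 (4266 and 6376 CPM summed). The muscle list was at 1285 and 2245 CPM, with 2 of 3 tested genes higher and Mir133a-1 and Mir133a-2 at 0. The mesenchymal list, with all 6 genes present, was at 16177 and 18247 CPM, with 3 of 5 tested genes higher and 1 lower. Of the hepatocyte list 4 of 5 genes were higher and 0 lower, with a median log2 ratio of 0.18, although its sum (219895 and 222039 CPM) is mostly Mir122 and hardly differed. The leukocyte list (3 of 4 genes with a row) was at 17618 and 18343 CPM, with 1 of 3 higher. The erythroid list (3 of 3 genes) was at 24071 and 27152 CPM, with 2 higher and 1 lower. The endothelial gene Mir126a was higher, at 45470 and 48546 CPM. The neural list (5 of 9 genes with a row, Mir9-2 at 0) was at 247 and 251 CPM, with 1 of 4 tested genes higher. Multimapping reads are tallied apart from the genes, so a 0 in these lists does not show that a miRNA is absent. In the edgeR exact test with the common dispersion, 1 gene of these lists was called, Mir194-1 of the hepatocyte list (log2 ratio 1.85, mean 32.4 CPM). Mir194-2 (0.18) and Mir122 (0.01) of the same list had much smaller log2 ratios. Mir215, which starts at 185313581 against 185313319 for Mir194-1, is on none of the lists and had a log2 ratio of 4.89. The call of Mir194-1 is thus not a reading of hepatocytes as a whole, and 0 genes of the other lists were called. The part of these cell types in the members' ratios was not tested.

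Over the 2 libraries, the summed members had a log2 ratio of -0.27. Among 60 genes outside the locus with a mean of 1000 CPM or more, those nearest to it were Mir298 (-0.27), Mir93 (-0.32) and Mir361 (-0.34). Likeness over 2 libraries rests on 1 ratio per gene.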

How the data were processed

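Raw counts per gene and strand were deposited by the authors for each library in tables without a header. Assembly mm10 and annotation M4 are given per the text description deposited with them; for the aligner and the counter: not given in the sources used here. The stranded column with the larger total was used as the sense count. Its totals were 5930074 and 5102289, where 1 count is worth 0.169 and 0.196 CPM, and 4 tally rows were left out. Multimapping reads, 28.1% and 28.2% of reads tallied, are tallied apart from the genes. Names and coordinates came from GENCODE M21 by versionless identifier (1894 of 1973 rows matched), mature sequences from RefSeq for all 10 members, and hairpin words and GC content from GENCODE transcripts.

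Rows with 10 or more counts over both libraries were compared by the exact conditional binomial test, two-sided (scipy 1.17.1), with Benjamini-Hochberg adjustment. Log2 ratios used a pseudocount of 0.5. A quasi-likelihood test needs a contrast between replicated groups, which 1 group does not have; an edgeR 4.0.16 exact test with the common dispersion of an intercept-only fit was an alternative, beside TMM and DESeq2 1.42.0 scaling. The exact test was checked on counts simulated with counting error only, where it called 2 of 244 unchanged rows. The simulation held no spread between pools, so it does not show how the test behaves with that spread. Named genes were the members, the other rows of the locus before Mir379 with a count, the 3 most abundant distal rows and the 3 genes of nearest ratio. Members and lists were chosen with earlier results of these data known. The comparison with GC content was added after seeing the data.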

Additional observations from a re-analysis of the deposited data

Results flagged for a closer look

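Counts on the opposite strand are not part of the levels above, and at 2 members they exceeded the 3 counts that a count of 0 allows. The Mir337 row had 202 such counts in replicate 1 and 129 in replicate 2, at the place of Mir3544. The Mir3071 row had 13 in replicate 1 and 21 in replicate 2, where Mir136 and Mir3071 lie on opposite strands. Groups of 2 libraries are too small for a test of outlying samples.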

How the results depend on the processing

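The summed share of the members ranged from 4.20% to 5.07% when either library was left out. It was 5.90% of a total without the most abundant row, a change that follows from the smaller total. It was 4.26% irrespective of strand, 4.64% with opposite-strand counts added or with members sharing 18-base words left out (none did), and 4.49% without the Mir3071 row, an alternative chosen after seeing the data. With TMM or DESeq2 scaling the median log2 ratio of the members was -0.26 under each. Mir434 then turned to 0.014 and 0.011, and the other 9 members kept their direction and call. Under the edgeR exact test with the common dispersion 0 members were lower and 0 higher, and over all rows 0 were lower and 3 higher. The allowance for the spread between libraries sets this test apart from the binomial test. That spread was, however, estimated from the same 2 libraries that were compared. Without the Mir3071 row 0 members were higher and the median was -0.38. Other filters, pseudocounts, the total without the most abundant row and counts irrespective of strand left all 10 calls as they were. By CPM per hairpin length 2 members changed rank. No paired analysis was possible because the libraries form 1 group. At these depths a row without a count lies below 0.506 and 0.588 CPM.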
